A study of Mus musculus with 2 samples.

Results

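Bidirectional protein-coding promoters were described in DNase-seq data from mouse frontal cortex. A pair was 2 protein-coding genes of GENCODE M21 that lie on opposite strands, face away from each other and have their 5′ gene ends 1 to 1000 bp apart. The rule used the annotation alone, and it found 754 pairs with 1487 genes, 6.78% of the 21938 protein-coding genes of the annotation. The region of a pair was the stretch between both 5′ ends (the gap) plus 250 bp inside each gene. The gap had a median of 129.5 bp, with quartiles at 67 and 240 bp, and 618 pairs (82.0%) had a gap of at most 300 bp. The widest gaps inside the rule were those of Zfyve26/Rad51b (978 bp), Asphd1/Sez6l2 (981 bp) and Btf3l4/Txndc12 (987 bp). The nearest pairs outside it were Serpina7/4930513O06Rik (1007 bp), Gpr108/Trip10 (1009 bp) and Sgsm2/Tsr1 (1011 bp). Pairs are written with the minus-strand gene first. In all, 21 genes stood in more than 1 pair and 42 regions overlapped another pair's region, so the pairs are not fully independent.

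The tissue came from female B6CASTF1/J mice aged 14 days, with no treatment labelled, the first generation of a cross between the strains C57BL/6J and CAST/EiJ. The study held 1 group of 2 libraries, labelled as biological replicates 1 and 2, with separate biosamples but 1 donor label. A sample label carries the mark 3x without saying what it means, so it is not known whether tissue of several animals was pooled. DNase I cuts DNA that is free of nucleosomes, a peak marks a stretch of dense cutting, and a footprint is a short stretch inside such a site that is protected from cutting. Without a second group no test between groups was possible, and differences are set against the spread between both libraries. The spread may be partly technical.

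A bidirectional promoter is a short, mostly GC-rich stretch from which transcription starts in both directions, each gene having its own core promoter at an edge of a shared nucleosome-free site. In mammals such promoters are known to lie in CpG islands, to lack TATA boxes and to serve many genes of basic cell functions, such as DNA repair, the mitochondrion and RNA processing. Factors long known from such promoters include NRF1 (mitochondrial genes), ETS proteins such as GABP, YY1, NF-Y (which reads the CCAAT box), SP/KLF proteins (GC boxes) and CREB/ATF.

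The stretches between the starts show what these promoters look like. Each line gives the bases between both 5′ ends, without the ends themselves, on the plus strand of mm10 (the C57BL/6J reference). The minus-strand gene starts just left of the line and the plus-strand gene just right of it. None of these stretches overlaps an annotated exon of any gene. Capitals mark the letters of any of the 15 motifs spelled out with the motif counts, on either strand, and adjoining words run together. For each of 6 motifs, the strongest pair by mean rank over both libraries was taken whose gap is at most 300 bp, free of exons and holds the motif's letters under a footprint in both libraries. Here and below, under a footprint means overlapped by at least 1 bp, so a word need not be covered whole. At Klhl28/Togaram1 the E-box (64965737 to 64965744) meets the footprint of replicate 2 (64965744 to 64965753) only at its last base.
Bckdha/Exosc5, with an NRF1 motif (chr7:25658982-25659163): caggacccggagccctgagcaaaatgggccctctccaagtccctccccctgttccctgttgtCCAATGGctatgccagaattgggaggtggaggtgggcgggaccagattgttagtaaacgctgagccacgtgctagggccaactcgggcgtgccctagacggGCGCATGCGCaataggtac
Xab2/Pet100, with a CREB/ATF motif (chr8:3621317-3621547): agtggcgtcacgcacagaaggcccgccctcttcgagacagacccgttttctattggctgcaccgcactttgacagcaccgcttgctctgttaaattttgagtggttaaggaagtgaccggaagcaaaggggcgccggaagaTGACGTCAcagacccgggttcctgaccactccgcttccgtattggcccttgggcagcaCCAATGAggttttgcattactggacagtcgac
Klhl28/Togaram1, with a USF E-box (chr12:64965535-64965803): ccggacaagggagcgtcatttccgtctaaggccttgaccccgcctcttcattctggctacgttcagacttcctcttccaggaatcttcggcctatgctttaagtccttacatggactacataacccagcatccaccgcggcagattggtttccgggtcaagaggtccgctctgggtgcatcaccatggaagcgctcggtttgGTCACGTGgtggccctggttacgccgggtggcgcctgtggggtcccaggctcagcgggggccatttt
Styxl1/Mdh2, with a BANP motif (chr5:135778386-135778479): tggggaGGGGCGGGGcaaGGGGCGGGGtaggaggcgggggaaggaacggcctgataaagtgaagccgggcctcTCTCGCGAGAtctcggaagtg
Rita1/Ddx54, with an SP/KLF motif (chr5:120612590-120612738): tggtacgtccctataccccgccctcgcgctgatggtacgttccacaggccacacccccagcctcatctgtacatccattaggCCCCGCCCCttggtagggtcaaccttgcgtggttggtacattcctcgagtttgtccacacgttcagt
Fbh1/Ankrd16, with an NF-Y motif (chr2:11777583-11777875): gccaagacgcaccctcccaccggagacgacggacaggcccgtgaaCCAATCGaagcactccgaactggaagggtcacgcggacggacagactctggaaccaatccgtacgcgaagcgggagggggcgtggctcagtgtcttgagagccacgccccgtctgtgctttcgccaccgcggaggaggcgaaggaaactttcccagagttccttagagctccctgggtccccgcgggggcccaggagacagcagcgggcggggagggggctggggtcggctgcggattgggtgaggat

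A further 5 stretches were chosen for what their genes do and were picked after their values were seen. They hold a histone pair with 4 CCAAT boxes, pairs with DNA repair genes, a pair with a mitochondrial ribosome gene, and a pair without any peak.
Hist1h2bf/Hist1h2ad (chr13:23574197-23574380): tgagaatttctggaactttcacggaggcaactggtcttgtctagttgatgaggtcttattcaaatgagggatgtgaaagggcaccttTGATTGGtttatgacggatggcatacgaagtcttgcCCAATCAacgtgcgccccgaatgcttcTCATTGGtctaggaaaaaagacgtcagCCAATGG
Hscb/Chek2 (chr5:110839778-110839978): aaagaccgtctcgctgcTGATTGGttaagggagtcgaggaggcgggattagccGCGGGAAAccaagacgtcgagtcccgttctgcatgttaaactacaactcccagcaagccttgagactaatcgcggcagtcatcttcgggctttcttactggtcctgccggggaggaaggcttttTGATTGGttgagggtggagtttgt
Klc4/Mrpl2 (chr17:46646023-46646228): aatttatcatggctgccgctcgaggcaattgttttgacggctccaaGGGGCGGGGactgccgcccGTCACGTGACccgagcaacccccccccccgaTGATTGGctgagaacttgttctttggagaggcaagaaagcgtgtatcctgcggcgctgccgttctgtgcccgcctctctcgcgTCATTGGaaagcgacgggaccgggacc
Brca1/Nbr1 (chr11:101551956-101552148): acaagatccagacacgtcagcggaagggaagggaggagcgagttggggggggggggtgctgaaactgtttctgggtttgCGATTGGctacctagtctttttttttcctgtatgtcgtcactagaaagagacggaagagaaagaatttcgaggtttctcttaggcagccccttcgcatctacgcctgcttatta
Col4a4/Col4a3 (chr1:82586850-82586920): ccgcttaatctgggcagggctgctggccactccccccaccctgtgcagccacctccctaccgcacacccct

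Almost every pair region was accessible. A peak overlapped 708 of 754 regions in replicate 1 (93.9%, exact 95% binomial interval 91.9 to 95.5%) and 698 in replicate 2 (92.6%, 90.5 to 94.3%), a mean of 93.2% ± 0.938 (SD, n = 2). The background over windows of like length at all 21938 protein-coding 5′ ends was 56.5% in replicate 1 and 51.6% in replicate 2. In both libraries at once 697 pairs had a peak (92.4%), against 50.9% of all protein-coding 5′ ends. Pairs with a peak in replicate 1 alone numbered 11, Surf4/Stkld1 had one in replicate 2 alone, and 45 pairs had none. The unmatched peaks were weak, between 0.382 at Nup62cl/Pih1h3b and 1.25 at Rom1/Eml3 in replicate 1 and 0.515 in replicate 2. The intervals cover the counting of regions only.

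Solitary promoters were accessible less often. These were the 13422 protein-coding 5′ ends with no transcription start of another gene within 5 kb, each with a window from 250 bp plus the median gap upstream to 250 bp downstream, so that window lengths were alike (median 630.5 bp for pairs and 630 bp for solitary ends). A peak overlapped 49.1% of them in replicate 1 and 43.7% in replicate 2, a mean of 46.4% ± 3.77 (SD, n = 2). Pairs thus lay 44.8 percentage points higher in replicate 1 and 48.8 higher in replicate 2 (46.8 ± 2.83, SD, n = 2), a difference far larger than the spread between libraries. The solitary set held 1241 olfactory and vomeronasal receptor genes (9.25%).

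Base composition differed between the sets. The median GC content was 62.4% in pair regions and 53.5% in solitary windows, and the ratio of observed to expected CpG was 0.824 against 0.434. Among regions with a GC content of 60% or more, which held 62.1% of pairs and 28.5% of solitary ends, the difference in peak share was 13.7 percentage points ± 5.16 (SD, n = 2). At 60 to 65% GC, 96.6% of pairs and 86.5% of solitary ends had a peak in replicate 1, and 96.1% and 78.9% in replicate 2. At 65 to 70% GC all 157 pairs had a peak in replicate 1 and 154 in replicate 2, against 90% and 81.6% of solitary ends. Below 50% GC, 15 of 27 pairs had a peak in each library (55.6%), against 11.4% and 9.06% of solitary ends. Pairs lay above solitary ends in all 6 GC classes and both libraries, and the distance between both sets was smaller where GC content was high.

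**Figure D1:**
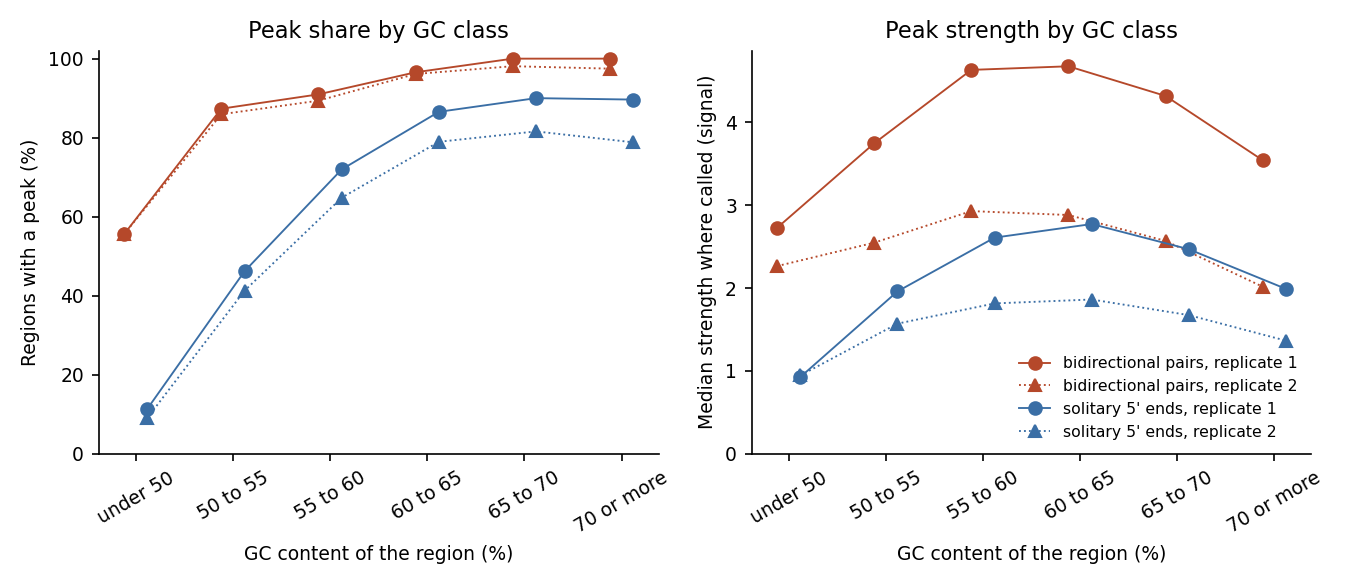
Left, share of regions with a peak (%) by GC content of the region (%); right, median strength of the strongest peak (the authors' signal) where a peak was called. Red stands for bidirectional pairs and blue for solitary 5′ ends, circles for replicate 1 and triangles for replicate 2; in each library the pairs lie above the solitary ends in every class, from 55.6% against 11.4% below 50% GC to 96.6% against 86.5% at 60 to 65% GC in replicate 1.

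Where a peak was called, it was stronger at pairs. The strength of a region is the deposited signal of its strongest peak, normalized for depth by the authors on a scale that is not stated. Its median over pairs was 4.31 in replicate 1 and 2.69 in replicate 2, with quartiles from 2.89 to 5.82 and from 1.96 to 3.53. Over solitary ends the median was 2.23 and 1.64, and over all protein-coding 5′ ends 2.67 and 1.88. The ratio of pairs to solitary ends was 1.93 in replicate 1 and 1.64 in replicate 2 (1.79 ± 0.205, SD, n = 2), and it was 1.67 ± 0.115 among regions with at least 60% GC. By GC class the median strength at pairs rose and then fell. Below 50% GC it was 2.73 in replicate 1 and 2.26 in replicate 2. At 60 to 65% it was 4.68 and 2.88, and at 70% or more 3.54 and 2.02. Spearman's rho, which measures a steady rise or fall, was -0.0043 with GC content over 708 pairs in replicate 1 and -0.12 over 698 in replicate 2. With the width of the gap it was weak (0.13 and 0.11). These correlations run across regions of 1 library and are descriptions.

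Hjurp/Trpm8 had the strongest peak of all pairs. Hjurp encodes the chaperone that loads the centromeric histone CENP-A, and Trpm8 encodes the cold-sensing ion channel. The starts lie 28 bp apart on chromosome 1 (88277633 and 88277661), and the strength was 21.8 in replicate 1 (peak 88277541 to 88277760) and 11.7 in replicate 2 (peak 88277501 to 88277660). Its value in replicate 1 was the highest at any protein-coding 5′ end. The next was Cdc27/Myl4 on chromosome 11, with starts 43 bp apart, at 10.3 in replicate 1 and 10.1 in replicate 2. Cdc27 encodes a subunit of the anaphase-promoting complex, and Myl4 an atrial myosin light chain. Rita1/Ddx54, whose gap is printed above with its GC box, followed at 10.1 and 7.15. Ddx54 encodes an RNA helicase. Fbh1/Ankrd16, also printed above, reached 9.72 and 7.44, and Fbh1 encodes a DNA helicase with an F-box.

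Also among the 8 highest in mean rank were Tepsin/Ndufaf8 (10.03 and 6.96 in replicates 1 and 2), Deaf1/Tmem80 (9.56 and 7.34) and Rer1/Morn1 (9.81 and 5.97). Ndufaf8 is an assembly factor of respiratory complex I, Deaf1 a transcription factor and Rer1 a protein that returns cargo to the endoplasmic reticulum. At the low end, Trpc5/Rtl4 on chromosome X had strengths of 0.315 and 0.266, and Plgrkt/Cd274 had 0.656 and 0.463. Trpc5 encodes a cation channel and Cd274 the immune checkpoint ligand PD-L1. In several pairs the partners belong to different cell types (Myl4 to heart muscle, Trpm8 to sensory neurons), and a peak at the shared stretch does not tell which of both genes was transcribed. In tissue, fewer cells with an open site and less cutting per cell cannot be told apart.

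**Figure D2:**
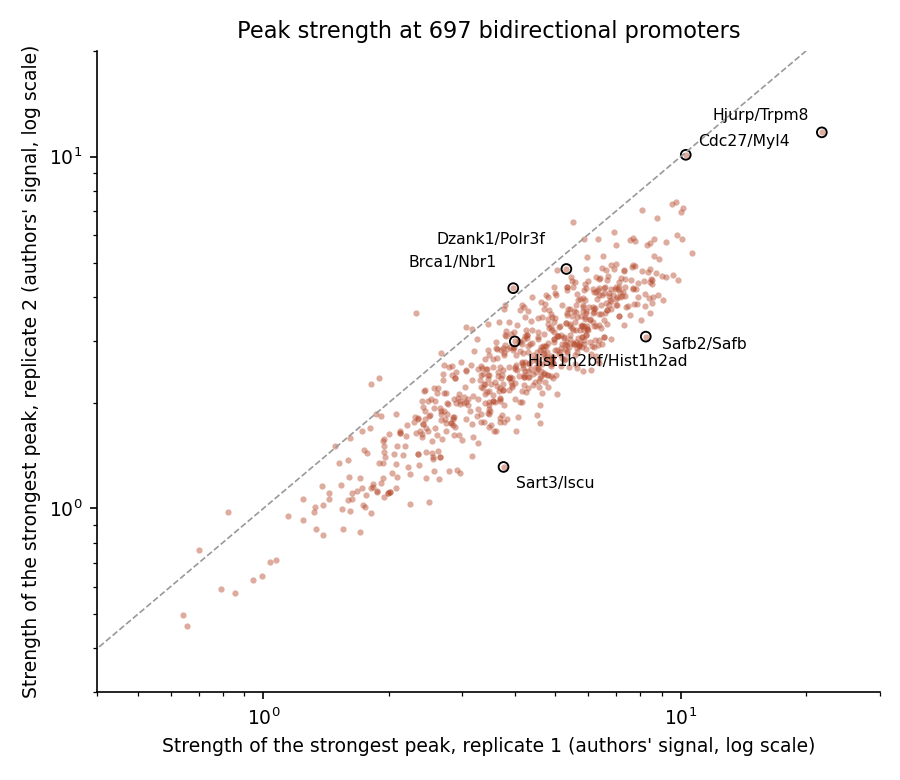
Strength of the strongest peak in replicate 1 (x axis) and replicate 2 (y axis), both on log scales, for the 697 pairs with a peak in both libraries; the dashed line marks equal strength. Most points lie below the line, Hjurp/Trpm8 lies apart at 21.8 and 11.7, and Brca1/Nbr1 is among the 11 pairs above it.

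Both libraries ranked the pairs alike. Spearman's rho between both strengths was 0.894 over the 697 pairs called in both. Replicate 1 had the higher value at 686 of them, and the median log2 ratio of replicate 1 over replicate 2 was 0.70, against 0.64 at solitary ends. Every strength was a whole multiple (within 0.05) of a smallest step, which was 0.00670 in replicate 1 and 0.00858 in replicate 2. The median pair peak held 643 and 313.5 steps, against 99 and 83 over all peaks. The ratio rose with GC content across pairs (rho 0.29). Its highest values were at Sart3/Iscu (3.76 and 1.31, log2 ratio 1.52) and Safb2/Safb (8.25 and 3.08, 1.42). Sart3 serves spliceosome recycling, Iscu is the scaffold of iron-sulfur cluster assembly, and Safb and Safb2 are related nuclear scaffold proteins.

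Among the lowest ratios were those of Hist1h2ac/Hist1h2bc (1.82 and 2.26, log2 ratio -0.32), Zwilch/Rpl4 (1.90 and 2.34, -0.30) and H2-T22/Gm6034 (0.824 and 0.978, -0.25). Zwilch acts at kinetochores and Rpl4 is a ribosomal protein. With 1 value per library, whether these differences exceed the error of a library could not be tested.

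Footprints were denser at pairs. Of the 697 pairs with a peak in both libraries, 695 (99.7%) held at least 1 footprint in replicate 1 and 694 (99.6%) in replicate 2, against a background of 97.9% and 95.3% of all protein-coding 5′ ends with peaks in both. Pairs had a mean of 7.61 footprints in replicate 1 and 6.66 in replicate 2, and solitary ends 5.53 and 4.48. Per kb of region the densities were 11.04 and 9.66 at pairs and 8.78 and 7.10 at solitary ends, a ratio of 1.26 and 1.36 (1.31 ± 0.0722, SD, n = 2). The number of footprints rose with strength (rho 0.35 over 708 pairs and 0.33 over 698), and whether the density differs at equal strength was not tested. The 5 pairs without a footprint in 1 of both libraries were Sirt1/Dnajc12, P3h4/Fkbp10, Gm9922/Lmo7, Grik5/Zfp574 and Trpc5/Rtl4, all with strengths of at most 1.44.

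The pairs with the most footprints had wide gaps and so long regions. Per kb of region, footprints were fewest at gaps of over 400 bp (7.98 and 7.40), against 11.8 and 10.02 at 1 to 100 bp. Asphd1/Sez6l2 (gap 981 bp) held 15 in replicate 1 and 19 in replicate 2, Cbx5/Hnrnpa1 (616 bp) 13 and 19, Cep57/Fam76b (609 bp) 17 and 15, Nlgn2/Tmem256 (730 bp) 17 and 14, and Rnf5/Agpat1 (572 bp) 15 and 16. Sez6l2 encodes a neuronal membrane protein, Cbx5 the heterochromatin protein HP1α, Hnrnpa1 a splicing regulator and Nlgn2 neuroligin 2, an adhesion protein of inhibitory synapses. Asphd1/Sez6l2 had low strengths of 2.19 and 1.501, so that the number of footprints and the strength did not go together there.

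The layout of the accessible site over both starts differed with the gap. In pairs with a gap of 1 to 100 bp, a single peak spanned both 5′ ends in 92.7% of the 300 called regions in replicate 1 and 89.9% of 296 in replicate 2. The share was 64.2% and 59.9% at gaps of over 100 and up to 200 bp, 24.8% and 38.0% at over 200 and up to 400 bp, and 1.23% and 3.85% at over 400 bp. The strongest peak had a median width of 240 bp in replicate 1 and 260 bp in replicate 2, which limits how wide a gap it can span. Slc7a6os/Prmt7 and Bag4/Lsm1, whose starts lie 1 bp apart, had 1 peak each, of 5.42 and 5.83 in replicate 1 and 3.11 and 3.7996 in replicate 2.

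Exactly 1 peak lay in 499 of 708 called regions in replicate 1 (70.5%) and 500 of 698 in replicate 2 (71.6%), a mean of 71.1% ± 0.815 (SD, n = 2). The background at all protein-coding 5′ ends with a peak was 77.7% and 77.2%, and at solitary ends 79.0% in each. By gap the share fell from 83.0% and 82.4% at 1 to 100 bp, through 74.7% and 74.9% and then 59.9% and 64.2%, to 32.1% and 35.9% at over 400 bp. Regions grow with the gap, and the part of length in these shares was not tested. With 100 bp in place of 250 bp per side the share over all gaps was 83.3%. Peaks may also touch: joining touching peaks, a setting chosen after seeing the data, gave 76.2% ± 3.88. Fiz1/Gm44973 (gap 799 bp) held 4 separate peaks in each library, and Ap3m1/Adk held 3 although its gap is 66 bp. Ap3m1 encodes a subunit of the adaptor complex AP-3 and Adk adenosine kinase.

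The centre of the strongest peak lay between both starts in 63.4% of called pairs in replicate 1 and 57.9% in replicate 2 (60.6% ± 3.92, SD, n = 2). By gap the share was 47.7% and 39.2% at 1 to 100 bp, where the gap is narrow, 71.6% and 66.8% at gaps of over 100 and up to 200 bp, 78.1% and 77.4% at over 200 and up to 400 bp, and 77.8% and 73.1% at over 400 bp. In the narrowest class the centre lay at a median of 26.5 bp and 34.5 bp from the middle of the gap, and in the widest at 256 and 247 bp. At Mcm4/Prkdc, with starts 466 bp apart on chromosome 16 (15637400 and 15637866), the strongest peak ran from 15637361 to 15637620 in replicate 1 and to 15637640 in replicate 2, over the start of Mcm4, a subunit of the replicative helicase. Prkdc, the catalytic subunit of DNA-dependent protein kinase, starts beyond that peak. Both libraries had 2 peaks there, with strengths of 6.50 and 4.81.

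**Figure D3:**
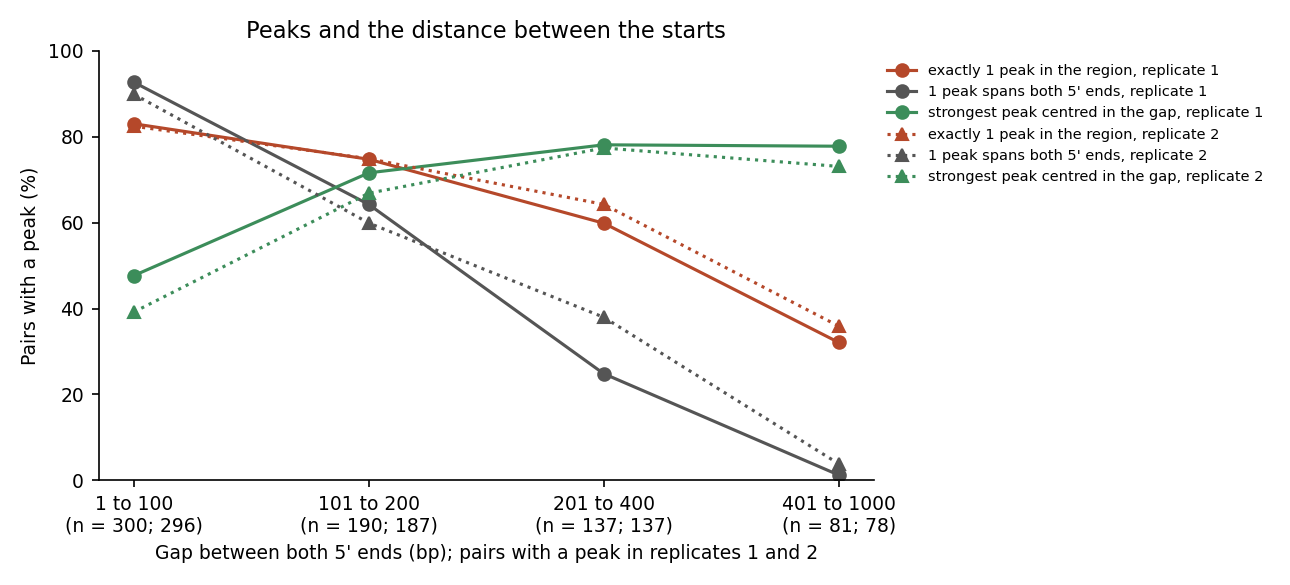
Shares of pairs with a peak (%) by the gap between both 5′ ends (bp), for replicate 1 (circles, solid lines) and replicate 2 (triangles, dotted lines). Red gives regions with exactly 1 peak, grey those where 1 peak spans both 5′ ends and green those where the strongest peak is centred in the gap; grey falls from 92.7% to 1.23% in replicate 1 as the gap widens.

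The cut rates give a view that does not use the peak calls. The authors' deposited FDR values list stretches of bases whose cut rate has an FDR below 0.05. Such stretches covered 83.1% of the bases between the starts in replicate 1 and 79.8% in replicate 2 (81.5% ± 2.36, SD, n = 2), and 88.6% and 83.5% of the 250 bp inside each gene. At solitary ends they covered 35.1% and 30.1% of the bases upstream and 43.4% and 36.4% of those downstream. Among regions with a peak in both libraries the distance was smaller: 91.7% and 88.6% of the gap and 94.9% and 90.1% inside the genes at pairs, against 76.8% and 69.1% upstream and 92.4% and 82.9% downstream at solitary ends. The gap was covered from end to end in 665 of 752 pairs in replicate 1 (88.4%) and 643 in replicate 2 (85.5%), the pairs with 1 bp between their starts having no base to cover. For gaps of over 400 bp the coverage was 68.5% and 61.9%, below that of the flanks inside the genes (74.6% and 66.04%). In the 618 pairs with a gap of at most 300 bp the order was the reverse, with 92.7% and 91.5% of the gap and 90.5% and 85.8% inside the genes.

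Around the starts the covered stretch reached farther downstream than upstream at solitary ends, and its sides differed less at pairs with narrow gaps. Among solitary ends with a peak in both libraries, 28.2% of bases 490 bp upstream and 62.2% of bases 490 bp downstream were covered in replicate 1, and 22.4% and 43.1% in replicate 2. At pairs with gaps of 1 to 100 bp the same distances to the left and right of the gap's middle gave 55.7% and 48.6% in replicate 1, and 38.6% and 41.0% in replicate 2. Farther out the sides of these pairs differed too, with 14.9% at 750 bp to the left and 23.1% to the right in replicate 1, and 7.5% and 14.7% in replicate 2. At solitary ends these were 11.5% and 36.3%, and 8.26% and 23.1%. Footprints in these narrow pairs covered up to 38.1% and 36.2% of bases, in the bin just left of the middle, and at solitary ends up to 27.5% and 22.8%. Both sides of a pair are the downstream side of a gene, whereas a solitary end has 1 such side. The part of this layout in the profiles was not tested.

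**Figure D4:**
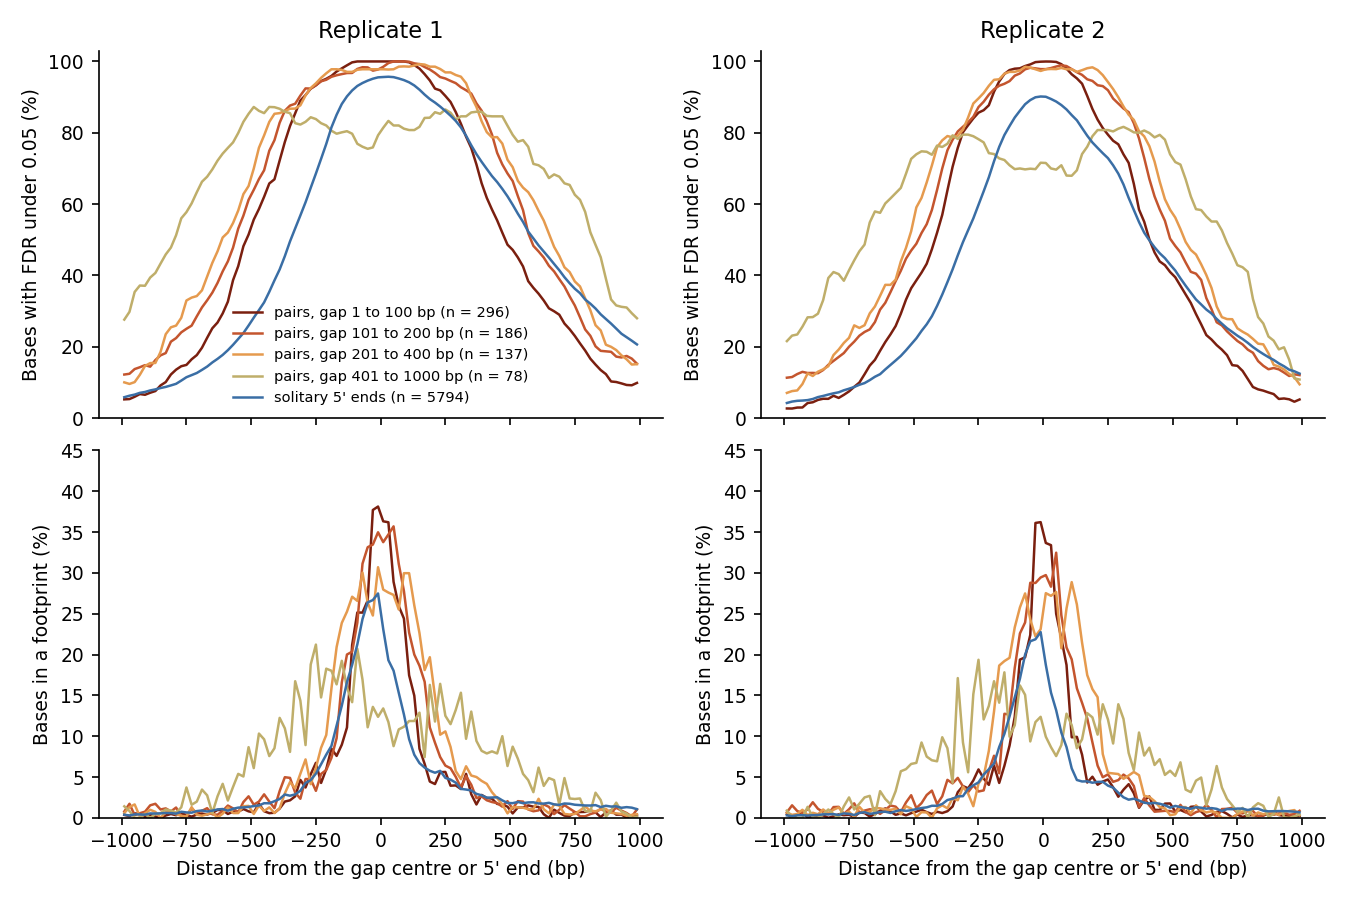
Upper panels, share of bases with FDR under 0.05 (%), lower panels, share of bases in a footprint (%), in bins by distance (bp) from the middle of the gap or from the solitary 5′ end, downstream to the right, in replicates 1 and 2, for regions with a peak in both libraries. The curve of solitary ends falls faster upstream (28.2% at 490 bp in replicate 1) than downstream (62.2%), and at narrow pairs the same distance gives 55.7% to the left and 48.6% to the right.

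The printed stretches show how footprints fell on the motif letters. At Bckdha/Exosc5, between a subunit of the branched-chain ketoacid dehydrogenase and a subunit of the RNA exosome, the overlapping NRF1 words lie 10 bp before the start of Exosc5, under a footprint at 25659140 to 25659159 in replicate 1 and 25659140 to 25659156 in replicate 2. Its CCAAT box had no footprint in either library. The strengths were 7.78 and 5.77. At Xab2/Pet100 the CREB/ATF word and the CCAAT box were both under footprints in both libraries, the first at 3621436 to 3621472 in each. Xab2 is a splicing and repair factor, Pet100 a cytochrome c oxidase assembly factor, and the strengths were 7.65 and 4.85.

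At Styxl1/Mdh2, whose right-hand gene encodes mitochondrial malate dehydrogenase, the BANP letters lie 12 bp from the start of Mdh2 and were under a footprint of 135778444 to 135778477 in replicate 2. In replicate 1 more than 1 footprint overlapped them. Each of its 2 GC boxes was touched by a footprint in 1 library only. At Hist1h2bf/Hist1h2ad, a histone H2B and H2A pair, 1 of the 4 CCAAT boxes was under a footprint, at 23574324 to 23574338 in replicate 1 and 23574316 to 23574334 in replicate 2. A match is a description of the letters, not proof of binding.

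Motif letters were counted in all pair regions and all solitary windows, on both strands. The words were GCGCATGC (NRF1), CCGGAAGT (ETS), AAGATGGCG (YY1), GGGGCGGGG (SP/KLF), TGACGTCA (CREB/ATF), CACGTGAC (USF E-box), TCTCGCGAG (BANP), ACTACAATT (ZNF143), TTTCCCGC or TTTGGCGC (E2F), and GTTGCCATG (RFX). The TATA box was searched as TATAAAA and the AP-1 site as TGAGTCA. NF-Y was searched as the CCAAT box followed by cytosine or guanine and then by a purine. CTCF and NFI were searched by their consensus. Some words, such as those of NRF1, BANP and the USF E-box, can overlap themselves on the opposite strand and then count as 2 matches. Of these 15 motifs, 11 were in a larger share of pairs than of solitary ends, 10 among regions with at least 60% GC and 11 among regions with peaks in both libraries. In the gap alone, set against the whole solitary window, 7 were.

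By ratio, pairs stood farthest above solitary ends for BANP, YY1 and ETS, counted per region. A pair region holds 2 gene starts with 250 bp inside each gene, and a solitary window holds 1. The part of this in the ratios was not tested. The YY1 word was in 9.28% of pairs, 2.26% of solitary ends and 3.03% of all protein-coding 5′ ends. The ETS word was in 16.6%, 4.51% and 6.19%, BANP in 3.85%, 0.872% and 1.12%, and E2F in 9.02%, 2.83% and 3.44%. NF-Y boxes were in 40.1%, 25.7% and 26.6%, USF E-boxes in 7.56%, 2.91% and 3.53%, NRF1 in 8.36%, 4.22% and 4.65%, and CREB/ATF in 5.17%, 2.48% and 2.89%. Among regions with peaks in both libraries the ratio of pairs to solitary ends was 2.11 for YY1, 2.02 for BANP, 1.97 for ETS, 1.82 for E2F, 1.35 for NF-Y, 1.26 for CREB/ATF and 1.25 for NRF1.

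SP/KLF boxes were in 29.8% of pairs and 16.9% of solitary ends (18.8% of all 5′ ends), but among regions with at least 60% GC the order was the other way round, with 35.3% of pairs and 42.3% of solitary ends. The ratio among called regions was 1.03. The TATA word was in 3.85% of pairs, 10.5% of solitary ends and 9.04% of all, and AP-1 in 5.04%, 8.96% and 8.20%. CTCF letters were in 1 pair (0.133%) and in 0.663% of solitary ends, and NFI letters in no pair and 7 solitary ends.

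**Figure D5:**
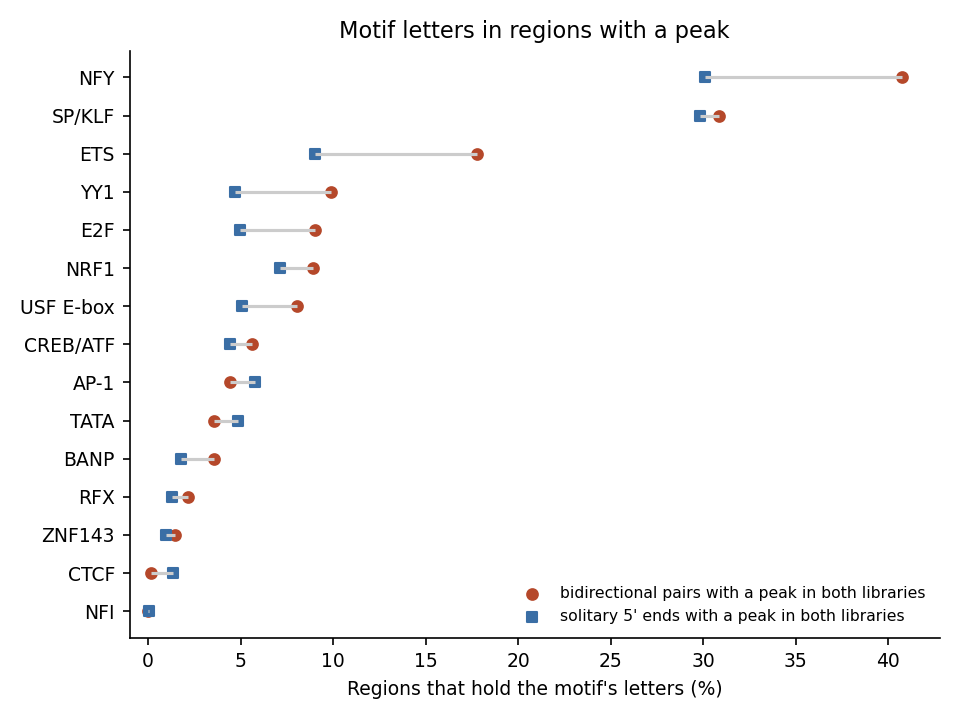
Share of regions (%) that hold each motif's letters, for bidirectional pairs (red circles) and solitary 5′ ends (blue squares) with a peak in both libraries. Pairs lie to the right of solitary ends for 11 of 15 motifs, most of all for NF-Y and ETS in percentage points, and to the left for the TATA box, AP-1, CTCF and NFI.

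The motifs lay at different places in the regions. The gap made up 27.7% of all bases of the pair regions and the first 100 bp of both genes 28.8%. NF-Y boxes lay in the gap in 71.0% of 506 matches, USF E-boxes in 62.7% of 75, SP/KLF boxes in 62.0% of 334 and NRF1 words in 52.8% of 106. YY1 was the opposite, with 9.59% of 73 matches in the gap and 65.8% in the first 100 bp of a gene. ETS words were in both, with 41.96% of 143 matches in the gap and 42.7% in the first 100 bp. No pair gave a YY1 word under footprints of both libraries inside a printable gap, so none is shown above.

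The share of matches under a footprint, that is overlapped by at least 1 bp, differed between motifs. How often a footprint overlaps any other words of like length was not measured, so the shares do not measure binding. In called pairs the share was 92.7% of 41 CREB/ATF words in replicate 1 and 85.4% in replicate 2, 85.7% and 82.9% of 105 NRF1 words, and 74.2% and 62.3% of 318 SP/KLF boxes. It was 44.4% and 35.2% of 142 ETS words, 48.6% and 40.3% of 72 YY1 words, 36.0% and 29.3% of 481 NF-Y boxes, and 9.09% and 6.06% of 33 AP-1 words. At called solitary ends the same shares were 85.2% and 73.1% for CREB/ATF, 67.6% and 70.3% for NRF1, and 63.3% and 46.1% for SP/KLF. For ETS, YY1, NF-Y and AP-1 solitary ends were near the pairs or above them, with 44.7% and 40.2% for ETS, 45.7% and 42.6% for YY1, 32.3% and 27.2% for NF-Y, and 8.596% and 6.30% for AP-1. Pairs lay higher for E2F, with 43.1% and 38.5% of 65 words against 34.7% and 24.6% at solitary ends. For TATA words, 26 in called pairs, the shares were 23.1% and 26.9% against 11.4% and 9.70%. For USF, RFX and ZNF143 words the direction differed between libraries. BANP words were under a footprint in 67.9% and 62.6% of cases at solitary ends, against 59.2% and 63.3% at pairs. Pairs with a CREB/ATF word had a median strength of 5.39 and 3.22, against 4.30 and 2.66 without. With an NRF1 word it was 5.29 and 3.07 against 4.30 and 2.65, with an NF-Y box 4.99 and 2.97 against 3.96 and 2.50, and with a TATA word 3.05 and 2.05 against 4.40 and 2.73. The other way round, pairs with an ETS word had 4.19 and 2.65 against 4.38 and 2.73 without, and pairs with an SP/KLF box 4.31 and 2.60 against 4.40 and 2.76.

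Genes of several basic cell functions stood in pairs more often than protein-coding genes as a whole. In all, 276 of the 754 pairs held a gene of any list used here. Gene lists were made from gene symbols, with earlier results of these data known. Of 78 mitochondrial ribosome genes 18 stood in pairs (23.1%), of 110 oxidative phosphorylation genes 25 (22.7%), of 117 DNA repair genes 35 (29.9%), of 108 general transcription genes 25 (23.1%) and of 245 splicing and RNA processing genes 46 (18.8%). Of 337 synapse and channel genes 4 did (1.19%), of 135 genes of axon and neuronal development 2 (1.48%), of 345 antigen presentation and immune genes 8 (2.32%), and of 1466 olfactory and vomeronasal receptors 1, the gene Vmn1r4 of Nt5c3/Vmn1r4. Over all protein-coding genes the share in pairs was 6.78%.

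Most pairs of these lists had a peak in both libraries, as had 92.4% of all pairs. It was 18 of 18 pairs with a mitochondrial ribosome gene, 24 of 25 with an oxidative phosphorylation gene, 47 of 47 with a splicing gene, 25 of 25 with a general transcription gene, 25 of 25 with a replication or cell cycle gene, 16 of 16 with a chaperone and 8 of 8 with a proteasome gene. Pairs of splicing genes had a median strength of 5.53 in replicate 1 and 3.35 in replicate 2, and pairs of replication and cell cycle genes 5.81 and 3.33, above the medians of all pairs (4.31 and 2.69). Pairs with a mitochondrial ribosome gene had 4.67 and 2.77. Oxidative phosphorylation, DNA repair, general transcription and tRNA synthetases also lay above the medians of all pairs in both libraries. Below them in both lay proteasome (3.79 and 2.46), ubiquitin and autophagy (3.84 and 2.51), mitochondrial import and translation (3.95 and 2.24) and chaperones (4.21 and 2.24). For the cytosolic ribosome and zinc finger genes the side differed between libraries. Further counts were 7 of 8 pairs for the cytosolic ribosome, 5 of 5 for tRNA synthetases, 13 of 13 for mitochondrial import and translation, 24 of 25 for ubiquitin and autophagy, 23 of 24 for zinc finger genes and 3 of 7 for antigen presentation and immune genes. No keratin or skin gene stood in a pair. Since most of these shares lie near that of all pairs, they are no result about the lists.

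Klc4/Mrpl2, whose printed gap holds a GC box, overlapping E-boxes and 2 CCAAT boxes, was the strongest pair with a mitochondrial ribosome gene, at 8.63 and 5.85. All 5 matches, the overlapping E-boxes counting as 2, were under footprints in replicate 1 and 2 of them in replicate 2. Klc4 encodes a kinesin light chain. Med22/Rpl7a, a Mediator subunit and a ribosomal protein, reached 9.24 and 5.70, and Rpl9/Lias, a ribosomal protein and lipoic acid synthase, 7.62 and 4.45. Rps28/Ndufa7, whose starts lie 10 bp apart, had 7.37 and 4.01. Mtrex/Dhx29, a pair of RNA helicases, had 8.30 and 5.60, and Ftsj3/Psmc5, with a proteasome ATPase, 5.47 and 4.55.

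DNA repair pairs were called in both libraries in 34 of 36 cases. This lies near the 92.4% of all pairs and is no result about the list. Hscb/Chek2 had the best mean rank of the DNA repair pairs, with 6.80 in replicate 1 and 4.92 in replicate 2. In replicate 1 alone Lig4/Abhd13, with a ligase of DNA end joining, was higher (7.11, and 4.42 in replicate 2). Hscb is a co-chaperone of iron-sulfur cluster assembly and Chek2 the checkpoint kinase CHK2, and a footprint overlapped a CCAAT box and the E2F word next to it in both libraries. Atm/Npat, also higher in replicate 1, had 6.99 and 3.94, with 1 peak over both starts in each library. Atm is the kinase that signals double-strand breaks, and Npat a coactivator of histone genes.

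Brca1/Nbr1 went against the trend between libraries. Its strength was 3.97 in replicate 1 and 4.23 in replicate 2. The starts lie 194 bp apart on chromosome 11 (101551955 and 101552149), and its strongest peak ran from 101552081 to 101552420 in both libraries, over the start of Nbr1, an autophagy receptor. A second peak lay in the region in each library. The CCAAT box in its gap had no footprint in either. Brca1 encodes a protein of homologous recombination.

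Histone pairs were weak where a peak was called. Of 14 pairs with a replication-dependent histone gene, which held 27 of the 67 genes of the list, 11 had a peak in both libraries. Over all pairs this share was 92.4%, and over the 5′ ends of all genes of the list 83.6%. With 14 pairs the count is no result about the list. The median strength was 2.03 in replicate 1 and 1.81 in replicate 2, against 4.31 and 2.69 over all pairs. The highest was Hist1h2bf/Hist1h2ad at 4.01 and 2.98. Next came Hist1h2ag/Hist1h2bj at 3.06 and 2.48, and the lowest called pair was Hist1h2ak/Hist1h2bn at 1.15 and 0.952. The pairs without a peak were Hist1h2bq/Hist1h2ao, Hist1h2ap/Hist1h2br and the testis-type pair Hist1h2ba/Hist1h2aa. Histone genes are near-identical copies, so reads that fit several copies may be lost or split, and their values are uncertain.

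Few synapse and channel genes stood in pairs. All 4 such pairs were called in both libraries, as were 92.4% of all pairs. Tmem126b/Dlg2 (gap 671 bp) had strengths of 7.33 and 3.33, Nlgn2/Tmem256 (730 bp) 4.99 and 3.47, and Cfap52/Stx8 (542 bp) 3.82 and 3.10. Grik5/Zfp574 (221 bp) was weak, at 1.07 and 0.712, with no footprint in replicate 1 and 1 in replicate 2. Dlg2 encodes the postsynaptic scaffold PSD-93 and Grik5 a kainate receptor subunit. Both pairs with an axon or neuronal development gene, Nisch/Sema3g and Sox6/1110004F10Rik, had no peak in their region in either library. Sox6 had another annotated start with a peak in both libraries 4283 bp away, at 0.676 in replicate 1 and 0.515 in replicate 2. Nisch had one 10120 bp away, at 3.36 and 2.89, and Sema3g had none. Gene-record 5′ ends of cell type markers, as a check of the tissue, had a peak in both libraries for 3 of 6 excitatory neuron genes (Camk2a, Tbr1, Neurod6), 3 of 5 astrocyte genes (Gfap, Slc1a3, Slc1a2), 1 of 6 oligodendrocyte genes (Olig1), and for 0 of 5 inhibitory neuron, 0 of 5 microglia, 0 of 4 endothelial and 0 of 8 genes of other tissues. Inhibitory neuron genes had 3 in replicate 1 alone. Over all protein-coding 5′ ends the share with a peak in both libraries was 50.9%. The excitatory neuron and astrocyte counts lie near it, so they say little about the tissue.

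The 45 pairs without a peak fell into 2 kinds. In 16 of them at least 1 gene had another annotated start with a peak in both libraries, within 250 bp on either side. Rps2 of Rnf151/Rps2, a ribosomal protein gene, had such a start 1947 bp from its gene end, with strengths of 7.19 and 3.60. Xrcc1 of Pinlyp/Xrcc1, a scaffold of single-strand break repair, had one 861 bp away with 6.71 and 3.79. Rad51c of Rad51c/Tex14, a recombination protein, had one 431 bp away with 4.82 and 2.49, and Ndufa5 of Ndufa5/Asb15, a complex I subunit, had one 443 bp away with 2.28 and 1.40. In these pairs the annotated 5′ gene end, taken from the longest extent of the gene, is not the start with the peak.

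In the other 29 pairs neither gene had a start with a peak in both libraries. They included Col4a4/Col4a3, whose products form the collagen IV of the kidney filter and whose starts lie 72 bp apart. The nearest peak lay 26143 bp away in replicate 1 and 47370 bp in replicate 2, and its printed gap held no footprint and none of the motifs, at a GC content of 69.0%. Others were Il11/Tmem190, Kctd19/Lrrc36, Patl2/Terb2, Tssk3/Fam229a, Duox2/Duoxa2, Klc3/Ckm, Smyd1/Cd8b1 and Pecam1/Milr1. Tssk3 is a testis kinase, Duox2 a thyroid oxidase, Ckm the creatine kinase of muscle, Cd8b1 a coreceptor of T cells and Pecam1 an adhesion protein of endothelium. These are examples only, and the tissues of the 29 pairs were not counted. The same 29 also held Aspa/Spata22, Odf3l1/Cspg4 and Sncg/Mmrn2. Of the 45 pairs, 12 had a symbol of a predicted gene or a Rik clone, against 78 of all 754. The depth of the libraries does not allow saying that such promoters were closed in every cell.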

How the data were processed

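DNase-seq was measured in 2 libraries. Per the deposited notes of each library, the authors called peaks, footprints and FDR cut rates on each library by itself, aligned to mm10, without pooling. The sources used here name no aligner, caller, version or threshold. Peak strength is the deposited signal, which the authors normalized for depth on a scale not stated, and total reads are unknown. The deposited FDR values (a p-value scale) list stretches below 0.05. The footprint files hold a constant, so positions alone were used. Of the 2 peak lists per library the longer was used (93641 and 66196 peaks; footprints 234094 and 154015).

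Gene ends and transcription starts came from GENCODE M21 and sequences from the GRCm38 reference. Overlaps of at least 1 bp were counted with numpy 2.4.6, pandas 2.3.3 and pysam 0.24.0, and intervals are Clopper-Pearson from SciPy 1.17.1. The functions were tested on simulated data of 400 pairs, where 12 of 13 checks gave exactly the planted count or that of bedtools 2.31.1; the other, a ratio of medians, carries sampling error. Solitary ends may have further starts of the same gene nearby; the stricter reading is an alternative.

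The members, lists, motifs and named pairs were chosen with earlier results of these data known. Named pairs were the 8 strongest by mean rank, the 5 with the most footprints, the 6 without a peak with the narrowest gaps, the 4 highest and 4 lowest ratios between libraries, the 4 with the most peaks, the 3 on either side of the 1000 bp limit, up to 2 per gene list and textbook pairs, of which a subset is printed. Pairs named beyond this rule (the weakest, those called in 1 library or without footprints, those 1 and 10 bp apart, further pairs without a peak) and 5 of the 11 printed stretches were chosen after their values were seen. A few pairs that these rules name are not reported here. Alternatives were each library alone, the shorter list, other flanks and gaps, other solitary sets and windows, GC-rich regions alone, and other measures of strength and footprints.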

Additional observations from a re-analysis of the deposited data

How the results depend on the processing

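Of 73 alternative settings 14 set a mean against 1 of its 2 libraries, which cannot lie outside the spread between both and so says nothing about stability. Of the other 59, 20 moved a value by more than that spread (counts, by over 1.5 times). The peak share difference and the ratios of strength, of footprints and between libraries kept their direction. SP/KLF boxes did not in GC-rich regions (35.3% of pairs, 42.3% of solitary ends), and 10 motifs were more frequent at pairs there, against 11. Gap coverage lay below coverage inside the genes over all pairs and above it at gaps of at most 300 bp. The single peak share of solitary ends was not recomputed under the alternatives. The peak share of pairs was 92.6 to 93.9% with each library alone, 91.9% with the shorter lists, 92.2% with 100 bp flanks and 94.3% without predicted and Rik genes. The difference from solitary ends was 44.8 to 48.8 points with each library alone, 51.2 with the shorter lists, 65.7 when solitary ends had no other start of any transcript within 5 kb, and 13.7 in GC-rich regions. The strength ratio was 1.64 to 1.93 with each library alone, 1.57 with the shorter lists and 2.45 with the stricter solitary set. The footprint ratio was 1.26 to 1.36 with each library alone, 1.21 with the shorter lists, 1.22 with 100 bp flanks, 1.42 with the stricter solitary set, 1.22 in GC-rich regions and 1.22 per kb of peak. The share with a single peak was 70.5 to 71.6% with each library alone, 73.9% with the shorter lists, 83.3% with 100 bp flanks, 53.0% with 500 bp flanks, 78.0% at gaps of at most 300 bp and 76.2% with touching peaks joined. Gap coverage was 92.1% at gaps of at most 300 bp, and 7 motifs were more frequent in the gap alone. The share of peaks centred between the starts was 57.9 to 63.4%, gap coverage 79.8 to 83.1% and the count of listed pairs with a peak 260 to 262 with each library alone, against 260 with both. For the other moved values the cause was not tested.

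No paired analysis was possible because there is 1 group. The precision is limited by 2 libraries from 1 donor label, by an unstated signal scale and by peak calls whose threshold is unknown.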

Other observations

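Many pairs known as bidirectional fall outside the rule because their annotated 5′ ends cross. Of 22 textbook pairs looked up, 6 were members and 12 had 5′ ends that cross by less than 1000 bp. Hspd1/Hspe1, the mitochondrial chaperonin and its partner, cross by 111 bp on chromosome 1 and had 1 peak of 6.11 in replicate 1 and 3.30 in replicate 2. Ppat/Paics, both of purine synthesis, cross by 271 bp and had strengths of 5.31 and 3.46. Mrpl18/Tcp1, with a chaperonin subunit, had 6.65 and 4.68. Psmb9/Tap1, of antigen processing, had 4.70 and 3.36. Col4a1/Col4a2, the collagen IV pair of most basement membranes, cross by 21 bp and had 1.58 and 1.16, whereas Col4a4/Col4a3 had no peak. Tk1/Afmid, with the thymidine kinase of dividing cells, had 0.877 in replicate 1 and no peak in replicate 2.

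Over all 308 protein-coding pairs whose 5′ ends cross by at most 500 bp, 95.1% had a peak in replicate 1 and 93.8% in replicate 2, with median strengths of 3.77 and 2.47. The pairs with a gap beyond the rule's limit, up to 2 kb, numbered 108, of which 76.9% and 74.1% had a peak, with median strengths of 3.08 and 2.11. The windows of both sets were longer than those of the members (medians of 739.5 and 2038.5 bp against 630.5 bp), and the part of that length in the shares was not tested.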
